A study of Homo sapiens with 10 samples.

Results

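Keratins, claudins and the genes of desmosomes were described here by the H3K27ac of the regions assigned to them in H1975 cells, an established lung adenocarcinoma line with a mutant EGFR. Members were all annotated regions whose gene symbol was a numbered keratin (KRT), a claudin (CLDN), OCLN, a TJP, a DSG, a DSC, a PKP, DSP, JUP, EPCAM, PPL or EVPL. The rule used names only and no measured value. It found 262 regions of 47 genes among 67387 annotated regions, and the fit on which every test rests covered 157919 of 169637 counted regions. All 262 members passed the filter on low counts. KRT14, OCLN and TJP1 had no region in the annotated table used here. Each region was 502 bp wide, so levels can be set side by side between regions. A region was assigned to the gene with the nearest transcription start site, which is not proof that it acts on that gene, and an intronic region need not lie in an intron of the gene it is named for.

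The mark H3K27ac, an acetyl group on lysine 27 of histone H3, was measured by chromatin immunoprecipitation and sequencing in 3 groups of 3 libraries, called biological triplicates by the labels. DMSO controls were kept free of drug for 21 days and then in DMSO for 3 days. The osimertinib DTP group, drug-tolerant persister cells that survive an inhibitor of mutant EGFR, was kept in osimertinib at 500 nM for 24 days. The remaining group, named osimertinib DTP + AZD5153 and called the AZD5153 group here, received osimertinib at 500 nM for 21 days and then AZD5153, a bivalent inhibitor of BET bromodomain proteins, at 150 nM for 3 days. The labels do not say whether osimertinib went on during those 3 days. All groups came from 1 cell line and shared 1 pooled input library.

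Keratins are the intermediate filaments of epithelial cells, built from pairs of a type I and a type II chain. Simple epithelia such as that of the lung make KRT7, KRT8, KRT18 and KRT19, while KRT5 and KRT14 belong to basal cells and the hair and squamous keratins to the skin and its appendages. Claudins are the membrane proteins that seal tight junctions, with OCLN beside them and TJP scaffold proteins underneath. Desmosomes join the keratin filaments of neighbouring cells through cadherins (DSG, DSC) and a plaque (DSP, JUP, PKP), and EPCAM is an adhesion protein of the epithelial surface. H3K27ac marks active promoters and enhancers.

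The H3K27ac libraries held 6263443 to 10463351 counts each in all, and the input 1870885. Regions within 1 kb of a start site took 50.8% of the counts in osimertinib DTP replicate 2 and 52.9% in AZD5153 group replicate 3, against 29.3% to 34.8% in the other libraries. AZD5153 group replicate 3 correlated with its own replicates at a Spearman coefficient of 0.43 and 0.354 across regions, and other replicate pairs at 0.818 to 0.898. Levels below are in CPM, that is, counts relative to a library size scaled by TMM. Raw input counts come from a smaller total than those of the other libraries. Relative to its own total, the input had a median of 7.48 CPM over members. The mean of the 9 libraries had a median of 8.72 CPM. Of the 79 members at promoters, 23 were highest in osimertinib DTP replicate 2 and 29 in AZD5153 group replicate 3, and 51 of the 143 distal members were lowest in the latter. Counts of calls over all members, by distance and by family are therefore also given without AZD5153 group replicate 3. The 6 markers of simple epithelium (KRT7, KRT8, KRT18, KRT19, EPCAM, CDH1) all had a promoter region, with a summed level of 150 to 208 CPM in DMSO, 159 to 385 CPM in osimertinib DTP and 174 to 372 CPM in the AZD5153 group. Of 4 lung alveolar markers, 3 had one and SFTPC did not, with a sum of 31.8 to 50.6 CPM, 30.6 to 56.9 CPM and 37.0 to 61.8 CPM in the same order. Only KRT5 and KRT10 of 7 stratified or squamous markers had one, with a sum of 8.71 to 13.9 CPM, 5.43 to 8.96 CPM and 3.87 to 6.98 CPM. Of 4 mesenchymal markers, 3 had one and CDH2 did not, with a sum of 12.9 to 38.7 CPM, 29.7 to 145 CPM and 52.6 to 162 CPM, and the part of this difference in the results on members was not tested. None of 3 blood and none of 3 neuroendocrine markers had a promoter region.

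Promoters of 4 genes are printed to show the sequence beneath regions that differ in what they did. The promoter region of CLDN1 was called higher in both drug groups. At CLDN7, CLDN4 and DSG2 the region over part of the printed bases was not called, although regions upstream were lower. Each line holds the 250 bases before the RefSeq start on the gene's own strand (assembly GRCh38.p14), at chr3:190322447-190322696 on the minus strand for CLDN1, chr17:7262479-7262728 on the minus strand for CLDN7, chr7:73830746-73830995 on the plus strand for CLDN4 and chr18:31497927-31498176 on the plus strand for DSG2. Capitals mark matches, on either strand, to GGGCGG (the motif of SP and KLF factors) and TGANTCA (the motif of AP-1).
CLDN1: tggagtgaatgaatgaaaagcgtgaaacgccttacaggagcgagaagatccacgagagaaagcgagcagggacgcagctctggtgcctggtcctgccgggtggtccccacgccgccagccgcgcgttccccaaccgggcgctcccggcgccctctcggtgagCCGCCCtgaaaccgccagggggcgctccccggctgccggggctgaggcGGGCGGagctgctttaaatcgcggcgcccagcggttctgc
CLDN7: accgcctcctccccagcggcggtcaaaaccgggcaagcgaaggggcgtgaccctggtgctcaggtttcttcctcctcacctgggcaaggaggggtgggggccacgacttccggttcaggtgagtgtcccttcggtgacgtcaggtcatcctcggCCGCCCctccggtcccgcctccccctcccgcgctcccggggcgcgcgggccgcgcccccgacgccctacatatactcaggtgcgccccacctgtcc
CLDN4: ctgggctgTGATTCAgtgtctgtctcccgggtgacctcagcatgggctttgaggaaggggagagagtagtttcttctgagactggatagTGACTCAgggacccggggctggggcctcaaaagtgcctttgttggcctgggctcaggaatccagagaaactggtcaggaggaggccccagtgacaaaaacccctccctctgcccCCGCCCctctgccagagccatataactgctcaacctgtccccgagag
DSG2: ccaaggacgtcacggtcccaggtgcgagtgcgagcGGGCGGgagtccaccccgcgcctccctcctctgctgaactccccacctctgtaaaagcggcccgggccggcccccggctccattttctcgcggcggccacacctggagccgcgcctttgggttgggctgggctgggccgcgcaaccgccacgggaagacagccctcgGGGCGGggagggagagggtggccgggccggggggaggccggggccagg

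The GC content of these windows was 68.8% for CLDN1, 71.2% for CLDN7, 58.8% for CLDN4 and 75.2% for DSG2. GGGCGG began 88 and 40 bases before the start of CLDN1, at -88 and -40, at -96 in CLDN7, at -47 in CLDN4 and at -215 and -48 in DSG2. TGANTCA was found only in CLDN4, at -242 and -161. In windows of this length and position, GGGCGG was held by 43.6% of 39 promoters of 29 member genes and by 42.6% of all 35116 promoters. The shares were 10.3% and 6.57% for TGANTCA, 7.69% and 10.7% for TATAAA (the TATA box), 10.3% and 11.9% for GGAATG (the TEAD motif) and 0.0% and 3.00% for AACNNGTT (the grainyhead-like motif). A match is only a run of letters, and the absence of one says nothing of a factor's binding.

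Of the 47 genes, 30 had a promoter region, and most of those 30 had a peak at their lead promoter in every group. Single member regions rose or fell by up to 28.0-fold and 29.3-fold. In osimertinib DTP against DMSO, 8 members were higher and 18 lower at an adjusted p under 0.05 (edgeR, Benjamini-Hochberg over all regions). That was 3.05% and 6.87% of members, beside 5.58% and 5.13% of all regions tested. In the AZD5153 group against DMSO, 13 members were higher and 27 lower, or 4.96% and 10.3%, beside 9.05% and 9.01% of all regions. Members come from annotated regions alone, while all regions tested, here and for each family below, include others. Annotated regions in osimertinib DTP had 2.78% and 1.85% within 1 kb of a start site and 9.35% and 10.3% further out. In the AZD5153 group they had 5.32% and 3.18%, then 13.7% and 15.6%. Both comparisons share the DMSO libraries. The members' median log2 fold change was 0.12 in osimertinib DTP and -0.12 in the AZD5153 group, beside 0.15 and 0.23 over all regions. Called regions came from 25 of the 47 genes, 44 regions at 31 separate loci, and the other 22 genes had none, among them KRT7, KRT8, DSP, DSC2, JUP and PKP3. KRT7, JUP and PKP3 did have calls when AZD5153 group replicate 3 was left out. These are bulk samples, in which fewer cells with the mark and less of it per cell cannot be told apart.

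Counts are given next by distance from a start site. Of 79 promoter members (within 1 kb of a start site, 30 genes), 1 was higher and 3 were lower in osimertinib DTP, or 1.27% and 3.80%, beside 2.78% and 1.85% of all promoter regions. The AZD5153 group had 1 higher and 6 lower, or 1.27% and 7.59%, beside 5.32% and 3.18%. Of 143 distal members (78 intergenic, 57 in introns and 8 in other classes), 7 were higher and 12 lower in osimertinib DTP, or 4.90% and 8.39%, beside 9.79% and 10.8% of all annotated regions over 3 kb from a start site. The AZD5153 group had 11 higher and 17 lower, or 7.69% and 11.9%, beside 14.3% and 16.1%. Of 40 flanking members (1 to 3 kb from a start site), 0 were higher and 3 lower in osimertinib DTP, or 0.0% and 7.50%, beside 6.90% and 7.36% of all flanking regions. The AZD5153 group had 1 higher and 4 lower, or 2.50% and 10.0%, beside 10.6% and 12.7%.

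These counts moved with single libraries. Without AZD5153 group replicate 3, which takes part in the estimate of spread for every comparison, 30 members were higher and 37 lower in osimertinib DTP, or 11.5% and 14.1%, beside 14.2% and 12.7% of all regions in that fit. The AZD5153 group had 28 and 50, or 10.7% and 19.1%, beside 18.4% and 17.3%. In that fit promoter members had 6 higher and 4 lower in osimertinib DTP, or 7.59% and 5.06%, beside 9.16% and 5.12% of all promoter regions. Their counts in the AZD5153 group were 2 and 10, or 2.53% and 12.7%, beside 8.35% and 9.45%. Distal members had 21 and 28 in osimertinib DTP, or 14.7% and 19.6%, beside 19.99% and 22.6%. In the AZD5153 group they had 24 and 31, or 16.8% and 21.7%, beside 25.9% and 21.9%. Flanking members had 3 and 5, or 7.50% and 12.5%, beside 16.5% and 17.2%, then 2 and 9, or 5.00% and 22.5%, beside 19.0% and 21.7%. Without DMSO replicate 2 only 1 was higher and 2 were lower in osimertinib DTP, and 4 were higher and 15 lower in the AZD5153 group. Calls over all 164143 regions of that fit were also few, at 668 and 482, then 3943 and 4526. In osimertinib DTP the higher and lower counts were 4 and 10 without DMSO replicate 1, 3 and 6 without DMSO replicate 3, 5 and 9 without osimertinib DTP replicate 1, and 4 and 6 without either of its replicates 2 and 3. Calls over all regions were, in that order, 3608 and 4616, 1324 and 1836, 5634 and 2830, 3326 and 1599, and 3010 and 1471. Those fits tested 162921 to 164346 regions. The counts in the AZD5153 group were 4 and 18 without DMSO replicate 3 and 13 and 18 without its own replicate 1. Beside them stood 4172 and 5843 of 163040 regions and 8470 and 8216 of 163269 regions. When promoter regions and all other regions were scaled and fitted apart, also a choice made once the data had been seen, the AZD5153 group had 21 higher and 28 lower members. Calls over all 158873 regions were then 17648 and 13621. Of the 26 calls in osimertinib DTP, 3 were kept whichever library was left out, in PKP2, EPCAM and CLDN24. Of the 40 calls in the AZD5153 group, 19 were kept, in CLDN1, CLDN12, CLDN14, CLDN24, CLDN4, CLDN7, DSG2, EPCAM, KRT18, KRT75, KRT78 and PKP2. No call changed sign.

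**Figure D1:**
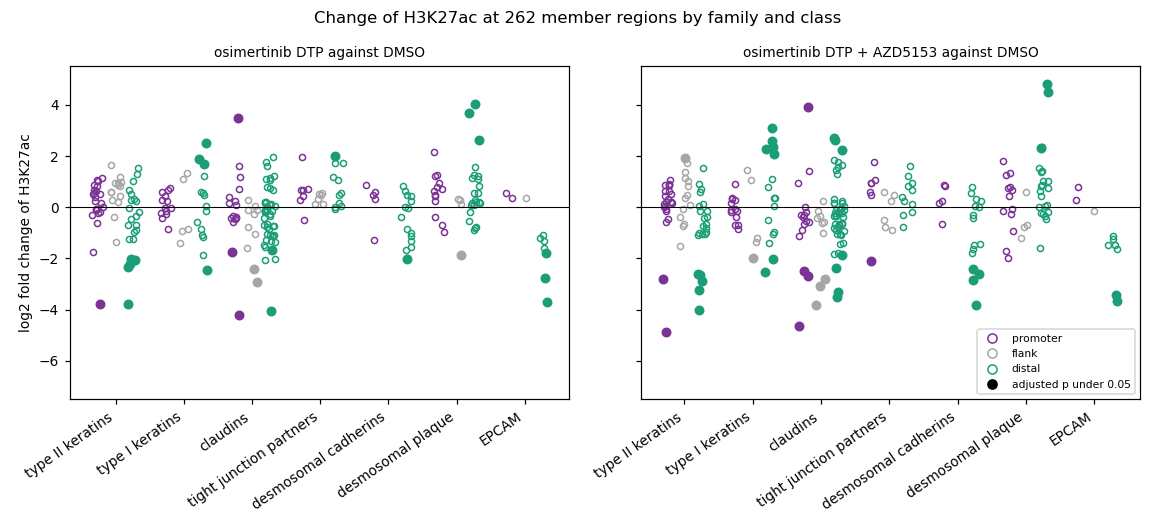
Each point is 1 of 262 member regions, placed by gene family on the x axis and by its log2 fold change of H3K27ac against DMSO on the y axis, for osimertinib DTP on the left and osimertinib DTP + AZD5153 on the right, with promoter, flank and distal regions in separate colours and filled points past an adjusted p of 0.05. Filled points are few, 26 on the left and 40 on the right, and for EPCAM all of them lie below 0.

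The AZD5153 group was also set against osimertinib DTP directly. Adding AZD5153 for 3 days and a possible stop of osimertinib cannot be told apart in this comparison, nor in that with DMSO. No member was called, 0 higher and 0 lower, beside 0.0% and 0.0% of all regions. At an unadjusted p under 0.05 (edgeR) there were 3 higher and 8 lower members, beside 7013 of all 157919 regions in either direction. DESeq2 called 0 members, beside 21 higher and 73 lower regions. Without AZD5153 group replicate 3 there was again no call among members, beside 0.0637% higher and 0.0587% lower over all regions. With both libraries of high promoter share left out, a choice made after the data had been seen, 6 members were higher and 5 lower, beside 1.13% and 0.982% of all regions in that fit. The 6 were 5 distal regions of CLDN23 and 1 of CLDN1, and the 5 were single regions of KRT80, KRT8 and CLDN4 and a pair at JUP, the plakoglobin of the desmosome plaque. At the CLDN4 region 8.69 kb before its start, counts were 62, 44 and 62 in osimertinib DTP and 14, 17 and 13 in the AZD5153 group. The groups did not overlap there, and the log2 difference was -1.65 ± 0.54 (SE, adjusted p = 1.00) over 9 libraries and -1.79 ± 0.48 (adjusted p = 0.0444) without both libraries.

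At the lead promoter region of each gene, the one with the highest mean level of that gene, levels spanned from KRT80 to KRT5. KRT80, a keratin of simple and stratified epithelia, had 54.8 ± 15.3 CPM in DMSO (SD, n = 3), 78.3 ± 43.9 CPM in osimertinib DTP and 99.3 ± 50.4 CPM in the AZD5153 group. KRT8 had 63.0 ± 11.7, 70.4 ± 27.2 and 78.5 ± 23.9 CPM in the same order, and KRT7 42.0 ± 10.1, 66.7 ± 40.0 and 76.7 ± 49.5 CPM. In all of these the groups overlapped and no difference was called, with adjusted p between 0.286 and 0.885. The same held, in overlap and call, for the lead promoters of KRT18, KRT19, CLDN4, CLDN7, DSG2, DSC2, DSP, JUP, PKP2 and PKP3. Those of PPL and CLDN3 lay above DMSO in all 3 osimertinib DTP libraries, that of EPCAM in all 3 of the AZD5153 group and those of PKP4 and TJP3 in all 6, without a call over 9 libraries. In that fit 4 of 30 lead promoters were called in either comparison, those of CLDN1, CLDN14, KRT5 and KRT78. With AZD5153 group replicate 3 left out, 9 were called, the other 5 being those of PPL (adjusted p = 0.00555), TJP3 (0.00669), CLDN3 (0.02005), PKP4 (0.0443) and KRT86 (0.0489), all higher in osimertinib DTP. The median log2 fold change over 30 lead promoters was 0.58 in osimertinib DTP and 0.40 in the AZD5153 group. Over all 24296 promoter regions it was 0.35 and 0.42. Without AZD5153 group replicate 3 the median of the lead promoters in the AZD5153 group was -0.10. A peak of the authors' lists lay over the lead promoter in all 3 libraries of a group at 25 of 30 genes in DMSO, 26 in osimertinib DTP and 25 in the AZD5153 group.

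**Figure D2:**
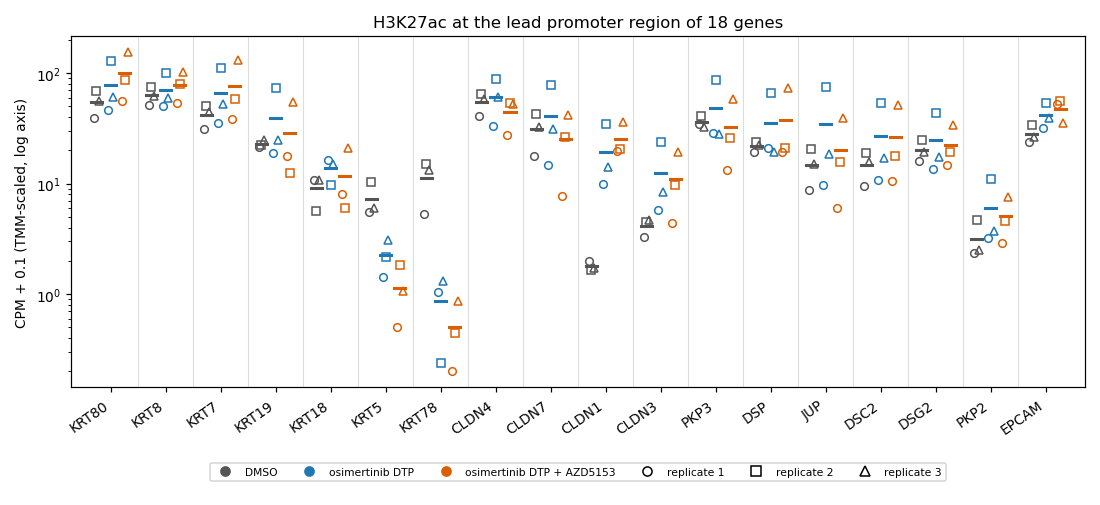
H3K27ac at the lead promoter region of 18 genes, with the gene on the x axis and TMM-scaled CPM plus 0.1 on a log y axis. Colours give the group, symbols the replicate and bars the group mean. For most genes the groups overlap, CLDN1 rises from a mean of 1.69 CPM in DMSO to 19.3 and 25.4 CPM, KRT78 falls from 11.1 CPM to 0.768 and 0.407 CPM.

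Type II keratins held 60 regions of 12 genes. In osimertinib DTP none was higher and 6 were lower, in KRT75, KRT78 and KRT82, and in the AZD5153 group 1 was higher, in KRT80, and 7 were lower, in KRT5, KRT75, KRT78 and KRT82. These were 0.0% and 10.0% of the family's regions, then 1.67% and 11.7%. Over all regions tested the shares were 5.58% and 5.13%, then 9.05% and 9.01%. The family median was 0.23 and 0.04. With AZD5153 group replicate 3 left out, the counts were 3 higher, in KRT7, KRT85 and KRT86, and 9 lower in osimertinib DTP, then 2 and 9 in the AZD5153 group, with KRT86 among the lower ones, and the median in the latter was -0.28. Those counts were 5.0% and 15.0%, then 3.33% and 15.0%, beside 14.2% and 12.7%, then 18.4% and 17.3% of all regions in that fit. KRT75 is a keratin of the hair follicle and KRT82 of hair.

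The promoter region of KRT78 (chr12:52847489-52847990) had 57, 144 and 131 counts in DMSO, then 10, 1 and 12 in osimertinib DTP, then 1, 3 and 4 in the AZD5153 group, with 15 in the input. Every DMSO library lay above every treated one. The mean fell from 11.1 ± 5.18 CPM to 0.768 ± 0.559 and 0.407 ± 0.340 CPM, with log2 fold changes of -3.78 ± 0.75 (SE; adjusted p = 0.00685) and -4.87 ± 0.84 (adjusted p = 0.00193). A region 8.09 kb upstream (chr12:52857184-52857685) went the same way, with 42, 113 and 86 counts, then 6, 3 and 7, then 2, 5 and 4, and log2 fold changes of -3.78 ± 0.69 (adjusted p = 0.00455) and -4.00 ± 0.71 (adjusted p = 0.00219). Both regions had a peak in all 3 DMSO libraries and in none of the treated ones. The call in osimertinib DTP was lost without DMSO replicate 2 at either region, with an adjusted p of 0.0585 at the promoter and 0.0522 upstream. The most distant region of KRT78, 25.3 kb away, had 144, 116 and 76 counts, then 51, 78 and 47, then 116, 87 and 72, and was not called.

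KRT75 had 3 neighbouring distal regions called lower in both drug groups, 5.64 to 7.05 kb before its start. In the middle one (chr12:52440861-52441362) counts were 153, 168 and 129 in DMSO, then 45, 14 and 31 in osimertinib DTP, then 16, 16 and 6 in the AZD5153 group. The 3 groups were separate from each other. Log2 fold changes were -2.22 ± 0.54 (adjusted p = 0.0164) and -3.23 ± 0.58 (adjusted p = 0.00222). The call in osimertinib DTP was lost without any 1 of DMSO replicates 2 and 3 or osimertinib DTP replicates 2 and 3, with an adjusted p of up to 0.104, and that in the AZD5153 group was never lost. The calls of its neighbours in osimertinib DTP were lost without any 1 of the 6 libraries compared (adjusted p of up to 0.143). A further region, 8.11 kb from the start, had 126, 164 and 110, then 44, 42 and 66, then 60, 94 and 10 counts and was not called.

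The single region of KRT82, in an intron 9.73 kb from its start (chr12:52416081-52416582), had 62, 74 and 63 counts in DMSO, then 23, 4 and 10 in osimertinib DTP, then 6, 5 and 11 in the AZD5153 group. The input had 24 counts there, or 12.8 CPM of its own total, above the DMSO mean of 6.53 ± 1.02 CPM. All 3 DMSO libraries had a peak at the region. The region was lower by a log2 fold change of -2.34 ± 0.66 (adjusted p = 0.0323) and -2.64 ± 0.69 (adjusted p = 0.0152). The first of these calls was lost without any 1 of 5 libraries and the second without any 1 of 3, with adjusted p of up to 0.148 and 0.0692.

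KRT5, the type II keratin of basal cells, had 1 region, 0.896 kb before its start (chr12:52521290-52521791). Its counts were 60, 99 and 59 in DMSO, then 14, 15 and 30 in osimertinib DTP, then 4, 15 and 5 in the AZD5153 group, with 18 in the input. Relative to its smaller total, the input was not below the mean DMSO level there. DMSO lay above both drug groups, which overlapped each other. The log2 fold change was -1.74 ± 0.61 in osimertinib DTP (adjusted p = 0.0768) and -2.79 ± 0.66 in the AZD5153 group (adjusted p = 0.00896), where the call was lost without DMSO replicate 2 (adjusted p = 0.0628). The former was called without AZD5153 group replicate 3 (adjusted p = 0.0127).

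The 1 type II keratin region that rose lay 2.28 kb before the start of KRT80 (chr12:52194296-52194797). It had 56, 53 and 84 counts in DMSO, then 57, 74 and 126 in osimertinib DTP, then 141, 203 and 182 in the AZD5153 group. The AZD5153 group lay above both others, with a log2 fold change against DMSO of 1.94 ± 0.57 (adjusted p = 0.0266), and osimertinib DTP overlapped DMSO at 0.58 ± 0.56 (adjusted p = 0.575). The call was lost without any 1 of the DMSO libraries, with an adjusted p of up to 0.129.

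Along chromosome 12, calls over 9 libraries lay in blocks of keratin genes. The 23 regions of KRT80 and KRT7 at one end held no lower call and had medians of 0.53 in osimertinib DTP and 0.50 in the AZD5153 group. The 27 regions of 9 genes between KRT7 and KRT8 held 6 and 7 lower calls and no higher one, with medians of -0.46 and -0.74. The 10 regions of KRT8 held no call, and the 13 regions of KRT18 beside it held 3 and 5 higher calls and no lower one, with medians of 1.11 and 1.07. Without AZD5153 group replicate 3 the block between KRT7 and KRT8 was no longer of 1 direction. It then had 2 higher calls, in KRT85 (log2 fold change 1.52, adjusted p = 0.0366) and KRT86 (1.15, adjusted p = 0.0489), beside 9 lower in osimertinib DTP, and 1 higher, in KRT85, beside 9 lower in the AZD5153 group. KRT80 and KRT7 then had 1 higher call in each comparison and KRT18 had 7 and 6. Over all regions tested, 5.58% were higher and 5.13% lower in osimertinib DTP, and 9.05% and 9.01% in the AZD5153 group. Without AZD5153 group replicate 3 these shares were 14.2% and 12.7%, then 18.4% and 17.3%. Neighbouring regions share fragments and are not independent. KRT81, KRT83 and KRT86 are close copies of each other, and how reads that map to several of them were treated is not given in the sources used here.

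**Figure D3:**
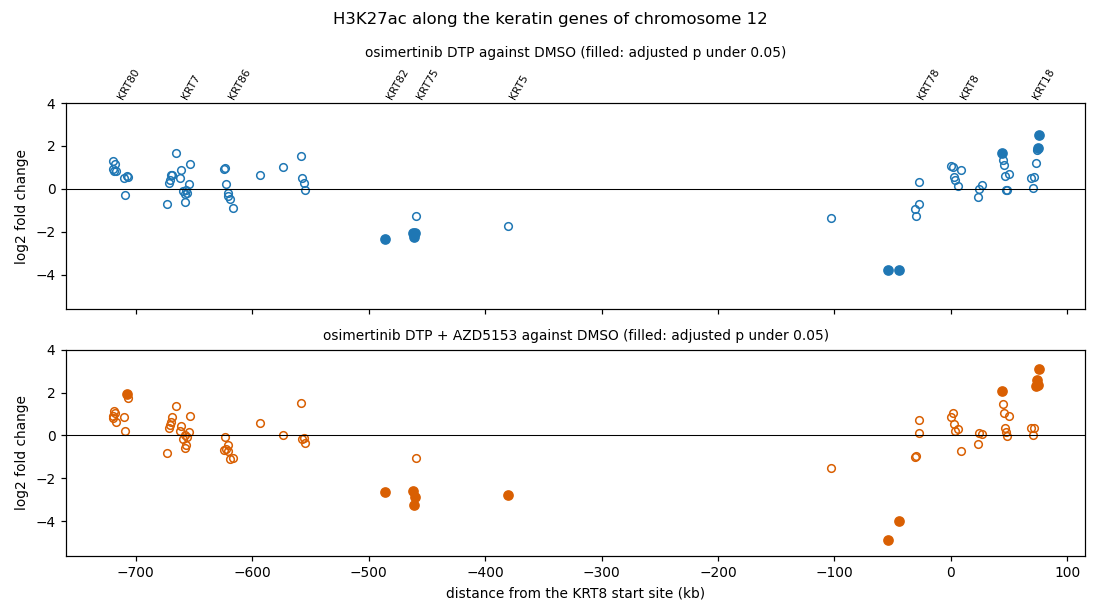
Log2 fold change of H3K27ac against DMSO (y axis) at the keratin regions of chromosome 12 by their distance in kb from an annotated KRT8 start site (x axis), for osimertinib DTP above and osimertinib DTP + AZD5153 below, with filled points past an adjusted p of 0.05. KRT8 has several annotated starts, and the origin is not its RefSeq start. With all 9 libraries, lower calls lie between KRT82 and KRT78, and higher calls at the KRT18 end and, in the lower panel, at KRT80.

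Type I keratins held 34 regions of 6 genes. In osimertinib DTP 3 were higher, all of KRT18, and 1 was lower, of KRT19, and in the AZD5153 group 5 of KRT18 were higher and 3 of KRT19 were lower. These were 8.82% and 2.94% of the family's regions, then 14.7% and 8.82%. Over all regions tested the shares were 5.58% and 5.13%, then 9.05% and 9.01%. The family median was 0.00 and -0.01. With AZD5153 group replicate 3 left out, there were 7 higher, of KRT18, and 3 lower, of KRT13 and KRT19, then 6 and 7 of the same genes in the AZD5153 group, where the median was -0.52. Those counts were 20.6% and 8.82%, then 17.6% and 20.6%, beside 14.2% and 12.7%, then 18.4% and 17.3% of all regions in that fit. KRT18 is the partner of KRT8 in simple epithelia, and KRT19 the smallest keratin of the same cells.

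KRT18 rose at a cluster 23.0 to 25.3 kb beyond its start and at an intronic region 3.13 kb before it. In the outermost region (chr12:52977048-52977549) counts were 25, 11 and 20 in DMSO, then 91, 89 and 98 in osimertinib DTP, then 187, 146 and 55 in the AZD5153 group, with 23 in the input. Every treated library was above every DMSO one, and no DMSO library had a peak there while all 6 treated ones did. The level rose from 1.80 ± 0.593 CPM to 10.3 ± 1.88 and 15.5 ± 4.27 CPM, or 5.66-fold and 8.50-fold, with log2 fold changes of 2.50 ± 0.56 (adjusted p = 0.0111) and 3.09 ± 0.57 (adjusted p = 0.00260). The call in osimertinib DTP was lost without DMSO replicate 2 or 3, with an adjusted p of up to 0.0980. The other 3 regions of the cluster were higher in the AZD5153 group by 2.29 to 2.59 on the log2 scale, calls lost without DMSO replicate 2 or 3 (adjusted p of up to 0.0871). One of them, 24.6 kb beyond the start, was also called in osimertinib DTP, at 1.90 (adjusted p = 0.0346, and up to 0.172 without any 1 of the 6 libraries compared).

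At the region 3.13 kb before the KRT18 start (chr12:52945241-52945742), a more acetylated one, counts were 156, 83 and 86, then 307, 322 and 262, then 372, 330 and 298. The treated libraries again lay above all DMSO ones. The log2 fold changes there were 1.68 ± 0.51 (adjusted p = 0.0419) and 2.08 ± 0.52 (adjusted p = 0.0110), and with the replicate number as a block the first had an adjusted p of 0.0574 and was no longer called. It was kept in only 2 of the 9 fits that left out a library. The call in the AZD5153 group was lost without DMSO replicate 2 or 3, with an adjusted p of up to 0.0842. The lead promoter of KRT18 had 119, 54 and 107 counts, then 172, 69 and 149, then 80, 51 and 109, and the groups overlapped. Its log2 fold change in the AZD5153 group, not called, was 0.36 over 9 libraries and -0.38 without replicate 3. The strongest distal region of KRT18, 19.9 kb beyond the start, had 340, 465 and 339 counts, then 250, 352 and 429, then 385, 429 and 138, with a log2 fold change of 0.04 ± 0.49 and 0.03 ± 0.49.

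KRT19 fell upstream. The region 7.39 kb before its start (chr17:41535702-41536203) had 83, 158 and 160 counts in DMSO, then 19, 18 and 30 in osimertinib DTP, then 9, 17 and 22 in the AZD5153 group. DMSO lay above both drug groups, which overlapped, and the log2 fold changes were -2.44 ± 0.63 (adjusted p = 0.0211) and -2.52 ± 0.64 (adjusted p = 0.0127). These calls were lost without any 1 of 5 and any 1 of 3 libraries, DMSO replicates 2 and 3 among them, with adjusted p of up to 0.118 and 0.0649. The region next to it was lower in the AZD5153 group by -2.02 (adjusted p = 0.0407), a call kept in only 2 of the 9 fits that left out a library. A region 2.10 kb before the start had 253, 326 and 205 counts, then 155, 123 and 89, then 83, 62 and 20, and was called in the AZD5153 group alone, at -1.98 ± 0.55 (adjusted p = 0.0199, and up to 0.109 without DMSO replicate 2 or 3). The lead promoter, with 238, 214 and 247 counts, then 199, 526 and 244, then 176, 106 and 286, overlapped between groups. The high values there are those of osimertinib DTP replicate 2 and AZD5153 group replicate 3.

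Claudins held 73 regions of 12 genes, the largest family. In osimertinib DTP 1 was higher, of CLDN1, and 6 were lower, of CLDN12, CLDN24, CLDN4 and CLDN7. In the AZD5153 group 4 were higher, of CLDN1 and CLDN23, and 10 were lower, of CLDN12, CLDN14, CLDN2, CLDN24, CLDN3, CLDN4 and CLDN7. These were 1.37% and 8.22% of the family's regions, then 5.48% and 13.7%. Over all regions tested the shares were 5.58% and 5.13%, then 9.05% and 9.01%. The family median was -0.27 and -0.37. With AZD5153 group replicate 3 left out, there were 8 higher, of CLDN1, CLDN16, CLDN23 and CLDN3, and 14 lower in osimertinib DTP, then 10 higher and 17 lower in the AZD5153 group, with a median of -0.60 in the latter. Those counts were 10.96% and 19.18%, then 13.7% and 23.29% of the family's regions. All regions in that fit had 14.2% and 12.7%, then 18.4% and 17.3%.

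CLDN1, a sealing claudin, was the only member gene with a promoter region called higher over 9 libraries. The region at chr3:190322002-190322503 lies over the start site and the end of the sequence printed above for CLDN1. Its counts were 21, 15 and 16 in DMSO, then 102, 246 and 139 in osimertinib DTP, then 198, 178 and 185 in the AZD5153 group, with 27 in the input. All treated libraries were far above all DMSO ones. No DMSO library had a peak there, and all 6 treated ones did, at a fold enrichment of 4.19 to 20.4. The level rose from 1.69 ± 0.190 CPM to 19.3 ± 13.1 and 25.4 ± 8.95 CPM, 11.3-fold and 14.9-fold, with log2 fold changes of 3.50 ± 0.63 (adjusted p = 0.00449) and 3.90 ± 0.64 (adjusted p = 0.00163). The first call was lost without DMSO replicate 2 (adjusted p = 0.0536), and the second was kept in every such fit.

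CLDN1 also had a distal region 82.9 kb beyond the start that was called in the AZD5153 group. Its counts were 36, 40 and 29 in DMSO, then 87, 58 and 78 in osimertinib DTP, then 201, 235 and 8 in the AZD5153 group. The groups overlapped through AZD5153 group replicate 3 alone, and the log2 fold change was 2.25 ± 0.73 (adjusted p = 0.0395) with it and the adjusted p 7.11e-05 without it, the only 1 of the 9 such fits that kept the call. It was not called with the replicate number as a block.

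CLDN12, a claudin without the usual tail motif for TJP binding, had a pair of promoter regions. The one at chr7:90384105-90384606, 0.384 kb from an annotated start, had 120, 192 and 156 counts in DMSO, then 14, 0 and 10 in osimertinib DTP, then 12, 4 and 0 in the AZD5153 group, with 15 in the input. It fell from 15.5 ± 4.48 CPM to 0.782 ± 0.697 and 0.556 ± 0.606 CPM, log2 fold changes of -4.23 ± 0.88 (adjusted p = 0.00802) and -4.63 ± 0.91 (adjusted p = 0.00354). All 3 DMSO libraries and no treated library had a peak there, and the first call was lost without DMSO replicate 2 (adjusted p = 0.0585). The other, the lead promoter at chr7:90404168-90404669, had 146, 289 and 203 counts, then 119, 120 and 207, then 113, 160 and 22, and was not called, with log2 fold changes of -0.38 ± 0.58 and -0.88 ± 0.59.

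CLDN24 was the nearest gene to 15 distal regions on chromosome 4, of which 1 was called, 4.20 kb before its start (chr4:183326630-183327131). Its counts were 48, 116 and 88 in DMSO, then 3, 2 and 9 in osimertinib DTP, then 8, 8 and 2 in the AZD5153 group. DMSO was separate from both. Log2 fold changes were -4.03 ± 0.71 (adjusted p = 0.00404) and -3.50 ± 0.69 (adjusted p = 0.00347), and neither call was lost without any 1 library. The strongest of the 15 had 397, 529 and 328 counts, then 259, 165 and 213, then 387, 260 and 43, and was not called.

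CLDN7, a claudin of lung and gut epithelium, had 7 regions, from its promoter to 2.66 kb upstream. The lead promoter (chr17:7262643-7263144) had 196, 413 and 325 counts in DMSO, then 154, 559 and 311 in osimertinib DTP, then 76, 225 and 214 in the AZD5153 group, and the groups overlapped. Upstream of it the mark fell. At 0.463 kb counts were 58, 80 and 68, then 23, 15 and 18, then 7, 11 and 6, with log2 fold changes of -1.73 ± 0.55 (adjusted p = 0.0494) and -2.70 ± 0.58 (adjusted p = 0.00560), and the 3 groups did not overlap. At 1.97 kb they were 59, 93 and 85, then 10, 7 and 11, then 4, 3 and 5, with -2.93 ± 0.60 (adjusted p = 0.00758) and -3.83 ± 0.66 (adjusted p = 0.00183). The region at 2.66 kb was lower as well, at -2.40 ± 0.62 (adjusted p = 0.0203) and -3.07 ± 0.65 (adjusted p = 0.00504). The 3 calls in the AZD5153 group were kept without any 1 library. In osimertinib DTP the call at 1.97 kb was lost without DMSO replicate 2 (adjusted p = 0.0655), that at 2.66 kb without any 1 of 4 libraries, and that at 0.463 kb was kept in only 2 of the 9 fits.

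CLDN4, a claudin of simple epithelia, was strongly acetylated at its promoter in every group. Its lead promoter (chr7:73831728-73832229) had 450, 625 and 578 counts in DMSO, then 349, 630 and 608 in osimertinib DTP, then 274, 458 and 272 in the AZD5153 group, with log2 fold changes of 0.16 ± 0.50 and -0.30 ± 0.50. The region over the first part of the printed sequence (chr7:73830307-73830808) was not called either, at 0.10 ± 0.57 and -0.66 ± 0.58. An intronic region 8.69 kb before the start (chr7:73821670-73822171) fell stepwise over the groups, with 157, 205 and 221 counts, then 62, 44 and 62, then 14, 17 and 13. Its log2 fold changes were -1.65 ± 0.52 (adjusted p = 0.0488) and -3.30 ± 0.57 (adjusted p = 0.00185). The first was called in only 1 of the 9 fits that left out a library, and the second in all 9. A stronger region at 7.51 kb, with 280, 473 and 421 counts, then 183, 225 and 227, then 104, 112 and 104, was not called, at -1.42 ± 0.52 in the AZD5153 group (adjusted p = 0.0659).

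Regions of CLDN14, CLDN2, CLDN3 and CLDN23 were called in the AZD5153 group and, over 9 libraries, not in osimertinib DTP. CLDN14, an ion barrier claudin of the inner ear and kidney, was lower at its lead promoter, with 236, 173 and 125 counts in DMSO, then 102, 112 and 124 in osimertinib DTP, then 12, 60 and 5 in the AZD5153 group, at -2.48 ± 0.69 (adjusted p = 0.0208). Its flanking region at 1.94 kb was lower too, at -2.78 ± 0.65 (adjusted p = 0.00837), and only that call was kept without any 1 library. CLDN2, which forms cation pores, was lower at 4.86 kb by -1.85 ± 0.54 (adjusted p = 0.0258), and CLDN3, a sealing claudin, at 23.3 kb by -2.39 ± 0.69 (adjusted p = 0.0239). The lead promoter of CLDN3 pointed the other way without a call, at 1.61 ± 0.66 and 1.42 ± 0.66 over 9 libraries. CLDN23 was higher at a pair of regions 36.8 and 37.6 kb away, and in the former counts were 24, 41 and 22, then 35, 107 and 114, then 195, 268 and 28, at 2.70 ± 0.71 (adjusted p = 0.0158). Both CLDN23 calls were lost without any 1 DMSO library, those of CLDN2 and CLDN3 without any 1 of 5 and of 3 libraries, and that of the CLDN14 promoter without any 1 of 3 (adjusted p of up to 0.0913). In osimertinib DTP, regions of all 4 genes were called once AZD5153 group replicate 3 was left out. They were the CLDN14 flanking region at -1.61 (adjusted p = 0.0170), the CLDN2 region at -1.46 (adjusted p = 0.0130), the CLDN3 region at 23.3 kb at -2.07 (adjusted p = 0.00635) and both CLDN23 regions, at 1.77 and 1.94 (adjusted p = 0.0119 and 0.0101), while the CLDN14 lead promoter was not. A further CLDN2 region and 3 other CLDN23 regions were lower in that fit. The difference between the drug groups at these genes was not past the threshold in the direct comparison.

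**Figure D4:**
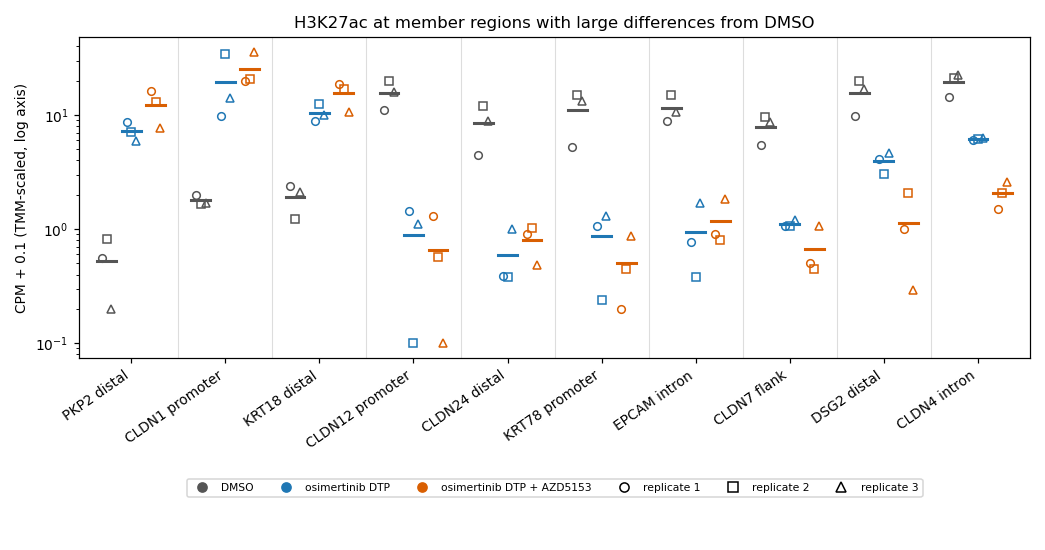
H3K27ac at 1 region each of 10 member genes with large differences from DMSO, on a log axis of TMM-scaled CPM plus 0.1, with colours for the group, symbols for the replicate and bars for the mean. PKP2, CLDN1 and KRT18 rise in both drug groups and the other 7 fall, and in all 10 the DMSO libraries are separate from the treated ones.

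TJP3, a scaffold that ties claudins to actin, held 4 regions, of which, over 9 libraries, none was called in osimertinib DTP and 1 was lower in the AZD5153 group. It fell at its inner promoter (chr19:3728245-3728746), with 92, 105 and 116 counts, then 67, 85 and 34, then 16, 15 and 21, at -2.09 ± 0.62 (adjusted p = 0.0269) in the AZD5153 group, a call lost without any 1 of 5 libraries. The lead promoter of TJP3, with 30, 27 and 39 counts, then 45, 160 and 101, then 42, 70 and 102, was not called over 9 libraries and was higher in osimertinib DTP without AZD5153 group replicate 3, at 1.95 (adjusted p = 0.00669).

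Desmosomal cadherins held 21 regions of 6 genes. In osimertinib DTP 1 was lower, of DSG2, and in the AZD5153 group 4 were lower, 3 of DSG2 and 1 of DSC1, and none was higher in either. The lower calls were 4.76% and 19.0% of the family's regions, beside 5.13% and 9.01% of all regions tested. The family median was -0.01 and -0.29. With AZD5153 group replicate 3 left out, 4 were lower in osimertinib DTP, of DSC1 and DSG2, and again 4 in the AZD5153 group. That was 19.0% in each, beside 12.7% and 17.3% of all regions in that fit. DSG2 and DSC2 are the desmosomal cadherins of simple epithelia, and DSC1 and DSG1 belong to the upper layers of skin.

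All 3 DSG2 regions that fell lay together, 8.70 to 10.2 kb before the start. In the middle one (chr18:31487967-31488468) counts were 108, 190 and 168 in DMSO, then 42, 21 and 45 in osimertinib DTP, then 9, 17 and 1 in the AZD5153 group. The 3 groups did not overlap, and peaks were present in all 3 libraries of DMSO and of osimertinib DTP and in none of the AZD5153 group. The level fell from 15.4 ± 5.07 CPM to 3.82 ± 0.822 and 1.02 ± 0.899 CPM, with log2 fold changes of -2.01 ± 0.62 (adjusted p = 0.0463) and -3.83 ± 0.69 (adjusted p = 0.00232). With the replicate number as a block the first was not called (adjusted p = 0.0709), and it was kept in only 2 of the 9 fits that left out a library. The second was kept in all 9. Its neighbours were lower in the AZD5153 group by -2.42 ± 0.63 (adjusted p = 0.0147) and -2.85 ± 0.69 (adjusted p = 0.00996), calls lost without DMSO replicate 2 (adjusted p of up to 0.0755) and, for the former, also without DMSO replicate 3 or AZD5153 group replicate 1.

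The DSG2 promoter did not follow. Its lead region (chr18:31498177-31498678) had 177, 240 and 193 counts, then 142, 314 and 173, then 145, 165 and 175, at log2 fold changes of 0.31 ± 0.56 and 0.16 ± 0.56. The region over the first part of the printed sequence (chr18:31497481-31497982) had 86, 145 and 87, then 83, 227 and 77, then 108, 109 and 178, and was not called. DSC2 was not called at any region, and its lead promoter had 103, 183 and 155 counts, then 111, 383 and 169, then 104, 151 and 264. The DSC1 region that was called, 67.3 kb away, had 40, 123 and 57, then 23, 14 and 33, then 14, 17 and 0 counts, at -2.61 ± 0.78 in the AZD5153 group (adjusted p = 0.0281), a call lost without any 1 of 3 libraries.

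The desmosomal plaque held 40 regions of 8 genes. In osimertinib DTP 3 were higher, of PKP2 and PKP4, and 1 was lower, of EVPL, and in the AZD5153 group 3 were higher, of PKP2 and PPL, and none was lower. Without AZD5153 group replicate 3 the counts were 7 higher and 1 lower, and 7 higher, of PKP1, PKP2, PKP4 and PPL, and 7 lower, of JUP and PKP3. Over 9 libraries the family's shares were 7.5% and 2.5%, then 7.5% and 0.0%. All regions tested had 5.58% and 5.13%, then 9.05% and 9.01%. Without that replicate the family had 17.5% and 2.5%, then 17.5% and 17.5%. All regions in that fit had 14.2% and 12.7%, then 18.4% and 17.3%. The family median over 9 libraries was 0.37 and 0.52.

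PKP2, a plakophilin that links desmosomal cadherins to desmoplakin, had the largest rise of any member. At chr12:32843218-32843719, 18.8 kb from its start and in an exonic class, counts were 5, 7 and 1 in DMSO, then 89, 50 and 58 in osimertinib DTP, then 161, 112 and 39 in the AZD5153 group, with 9 in the input. DMSO held almost no reads, and all treated libraries were above it. Peaks were absent from the 3 DMSO libraries and present in all 6 treated ones, at a fold enrichment of 6.96 to 19.3. The level rose from 0.426 ± 0.312 CPM to 7.10 ± 1.34 and 12.2 ± 4.35 CPM, with log2 fold changes of 4.02 ± 0.69 (adjusted p = 0.00374) and 4.81 ± 0.70 (adjusted p = 0.00122), and both calls were kept without any 1 library. The adjoining region (chr12:32843729-32844230) had 2, 4 and 5 counts, then 70, 22 and 45, then 115, 92 and 16, at 3.67 ± 0.72 (adjusted p = 0.00624, and 0.0576 without DMSO replicate 2) and 4.50 ± 0.73 (adjusted p = 0.00155). The PKP2 promoter had 25, 44 and 24, then 33, 79 and 36, then 28, 39 and 39 counts, and its groups overlapped.

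PKP4, a plakophilin relative found at desmosomes and adherens junctions, was higher in osimertinib DTP at an intronic region 22.5 kb away, with 12, 16 and 10 counts in DMSO, then 27, 46 and 141 in osimertinib DTP, then 21, 127 and 11 in the AZD5153 group. The treated libraries varied widely. The log2 fold change was 2.62 ± 0.81 (adjusted p = 0.0466) and 2.34 ± 0.81 (adjusted p = 0.0520). With the replicate number as a block the former had an adjusted p of 0.0664, and without any 1 of 5 libraries the call was lost. PPL, periplakin, was higher in the AZD5153 group at an intronic region 19.8 kb away, with 18, 7 and 15 counts, then 47, 23 and 38, then 61, 45 and 41, at 2.30 ± 0.57 (adjusted p = 0.0114). That call was lost without DMSO replicate 2 or 3 (adjusted p of up to 0.0830).

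EVPL, envoplakin, the partner of PPL in the cornified envelope, had 1 region, 2.16 kb before its start. It had 81, 68 and 76 counts in DMSO, then 14, 20 and 20 in osimertinib DTP, then 38, 20 and 35 in the AZD5153 group. It was lower in osimertinib DTP by -1.85 ± 0.58 (adjusted p = 0.0477), and with the replicate number as a block the adjusted p was 0.0508. In the AZD5153 group it was at -0.79 ± 0.56 (adjusted p = 0.360). The call was kept in only 2 of the 9 fits that left out 1 library.

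DSP, desmoplakin, which anchors keratin filaments, had 213, 228 and 223 counts at its lead promoter in DMSO, then 221, 474 and 191 in osimertinib DTP, then 191, 179 and 381 in the AZD5153 group. JUP had 95, 200 and 150, then 100, 543 and 182, then 59, 133 and 204. PKP3 had 378, 393 and 322, then 300, 628 and 278, then 132, 220 and 304. The highest level was that of osimertinib DTP replicate 2 in JUP and PKP3 and that of AZD5153 group replicate 3 in DSP, the groups overlapped and no region of these genes was called over 9 libraries. Without AZD5153 group replicate 3, 6 regions of JUP and 1 of PKP3 were lower in the AZD5153 group, none of DSP, and no region of the 3 genes was called in osimertinib DTP. The JUP region that fell most was then at -3.55 (adjusted p = 0.000169) and the PKP3 promoter region at -2.08 (adjusted p = 0.00624). Over 9 libraries JUP came nearest to a call at a promoter region 0.553 kb before an annotated start, with 239, 450 and 377 counts, then 116, 232 and 220, then 54, 93 and 84, at -1.71 ± 0.59 in the AZD5153 group (adjusted p = 0.0512, and 0.00483 without its replicate 3).

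EPCAM held 10 regions, of which 3 were lower in osimertinib DTP and 2 in the AZD5153 group, with medians of -1.26 and -1.36, and 6 and 5 were lower without AZD5153 group replicate 3. None was higher in either fit. Over all regions tested, 5.13% and 9.01% were lower, and 12.7% and 17.3% in the fit without that replicate. All lower EPCAM regions were among its 7 distal ones. They were 42.9% and 28.6% of these over 9 libraries, and 85.7% and 71.4% without that replicate. Of all annotated regions over 3 kb from a start site, 10.8% and 16.1% were lower over 9 libraries. Without that replicate 22.6% and 21.9% were lower. In the intronic region that fell most (chr2:47361207-47361708) counts were 96, 144 and 105 in DMSO, then 7, 2 and 16 in osimertinib DTP, then 8, 6 and 9 in the AZD5153 group, with 13 in the input. DMSO was separate from both drug groups. It fell from 11.4 ± 3.16 CPM to 0.853 ± 0.685 and 1.08 ± 0.574 CPM, with log2 fold changes of -3.68 ± 0.68 (adjusted p = 0.00490) and -3.44 ± 0.68 (adjusted p = 0.00369), and both calls were kept without any 1 library. The neighbouring region (chr2:47360291-47360792) was lower by -2.76 ± 0.63 (adjusted p = 0.0121) and -3.66 ± 0.69 (adjusted p = 0.00276), and the first of these calls was lost without any 1 of 5 libraries (adjusted p of up to 0.0795).

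Another EPCAM region, intronic and 8.81 kb beyond the start (chr2:47353969-47354470), had 277, 416 and 309 counts, then 80, 68 and 112, then 128, 137 and 33. It was lower in osimertinib DTP by -1.80 ± 0.54 (adjusted p = 0.0400), with an adjusted p of 0.0505 when the replicate number was a block, and stood at -1.49 ± 0.54 (adjusted p = 0.0608) in the AZD5153 group. The call was kept in only 2 of the 9 fits without 1 library. Its peaks remained in all 9 libraries. The promoter (chr2:47345107-47345608) had 262, 329 and 260 counts, then 335, 382 and 393, then 521, 476 and 184. It was not called, at 28.0 ± 5.34, 41.6 ± 10.7 and 47.7 ± 10.6 CPM and log2 fold changes of 0.57 ± 0.47 and 0.77 ± 0.48.

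**Figure D5:**
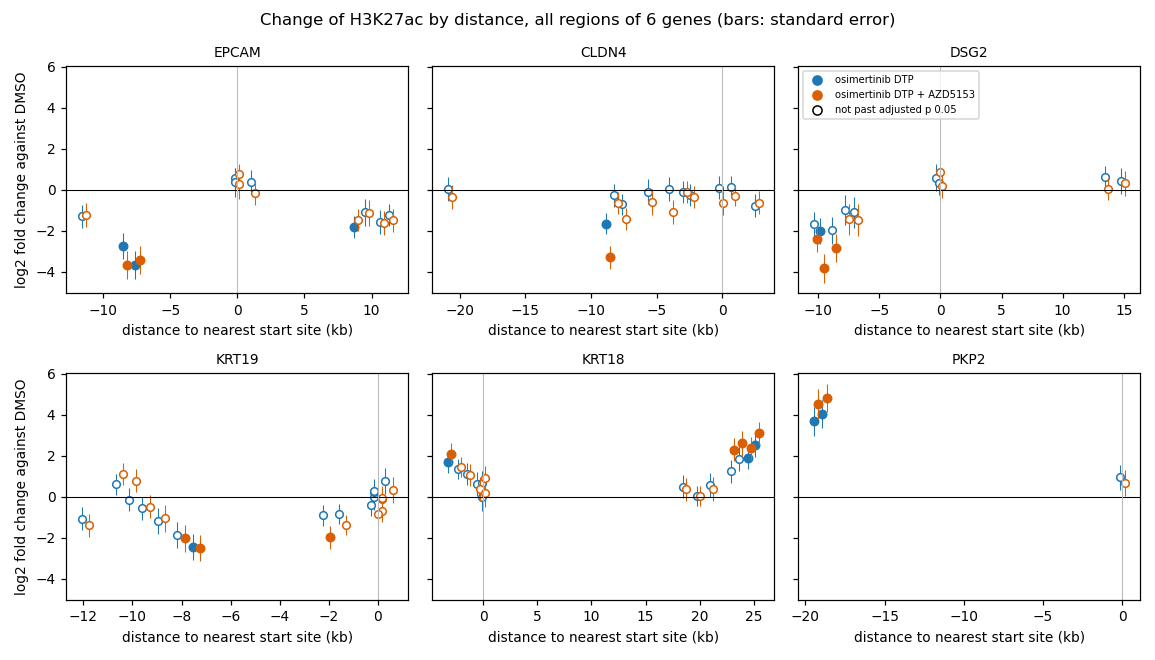
Log2 fold change of H3K27ac against DMSO with its standard error (y axis) by distance in kb to the nearest annotated start site (x axis), for all regions of EPCAM, CLDN4, DSG2, KRT19, KRT18 and PKP2, in blue for osimertinib DTP and orange for osimertinib DTP + AZD5153, with filled points past an adjusted p of 0.05. Points near 0 kb are open in every panel, and the filled ones lie away from the start, below 0 for EPCAM, CLDN4, DSG2 and KRT19 and above 0 for KRT18 and PKP2. Among genes not shown, CLDN1, CLDN7, CLDN12, CLDN14, KRT5, KRT78 and TJP3 had calls within 1 kb of a start site.

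Genes of neighbouring epithelial functions, outside the members, were read from lists over 9 libraries. Their counts stand beside 5.58% higher and 5.13% lower of all regions tested in osimertinib DTP. In the AZD5153 group those shares were 9.05% and 9.01%. Adherens junction genes (CDH1, CDH3 and 3 catenins) held 62 regions, of which 1 was higher and 9 were lower in osimertinib DTP and 1 was higher and 20 were lower in the AZD5153 group, with medians of -1.07 and -1.23. CDH1, the E-cadherin gene, had 3 of 24 regions lower in osimertinib DTP and 9 in the AZD5153 group, and CDH3, P-cadherin, 5 and 10 of 20. Their lead promoters were not called. In CDH1 the promoter had 122, 199 and 173 counts, then 64, 262 and 112, then 33, 94 and 135, at log2 fold changes of 0.13 ± 0.72 and -0.29 ± 0.72.

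Other tight junction genes with a region, 6 of 9, held 73 regions, with 2 higher and 1 lower in osimertinib DTP and 9 higher and 7 lower in the AZD5153 group and medians of 0.05 and 0.10. CXADR, an adhesion receptor of tight junctions, rose at its promoter from 97, 51 and 42 counts to 213, 180 and 206 and to 340, 349 and 90, at 1.85 ± 0.55 (adjusted p = 0.0372) and 2.33 ± 0.55 (adjusted p = 0.00898). Epithelial transcription and splicing regulators, 9 of 10 genes with 88 regions, had 9 higher and 10 lower in osimertinib DTP and 6 higher and 12 lower in the AZD5153 group, with medians of 0.18 and -0.19. Of these, GRHL2, a grainyhead-like activator of junction genes, had 8 and 10 of 27 regions lower, and ELF3, an epithelial ETS factor, 6 and 3 of 28 higher. Mesenchymal genes and other intermediate filaments, 7 of 8 with 32 regions, had 0 higher and 2 lower in osimertinib DTP and 4 higher and 3 lower in the AZD5153 group, with medians of 0.25 and 0.39.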

How the data were processed

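Raw read counts per region of H3K27ac ChIP-seq in H1975 cells were deposited by the authors, whose processing notes name BWA 0.7.17, MACS2 2.2.6, featureCounts 2.0.0, ChIPseeker 1.29.1 and genome build hg38, without parameters. The authors also deposited a peak list per library with the fold enrichment and the -log10 q of each peak, and each list matched its own count column best in 9 of 9 libraries. How reads that map to several places and duplicates were treated is not given in the sources used here, and the paper describes no analysis of these libraries. Replicates are biological triplicates per the labels.

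The members, lists and tests were chosen with earlier results of these data known. Counts were filtered with filterByExpr (minimum count 10), scaled by TMM and fitted over all 9 libraries with edgeR 4.0.16 (robust glmQLFit, glmQLFTest; limma 3.58.1, R 4.3.3), with Benjamini-Hochberg adjustment over 157919 regions and a threshold of 0.05. Standard errors are those of the fitted log2 fold changes, and SDs are over 3 libraries. Level tables were made with Python 3.11.15, pandas 2.3.3 and NumPy 2.4.6, and the fit was checked on simulated counts. Members closer than 1000 bp counted as 1 locus. Genes described were 22 chosen names, genes whose lead promoter was called, up to 5 with the largest rises and falls in each comparison with DMSO, and the 2 genes of each family with the most called regions. Results of 1 member gene are not reported here. Other called genes, and regions set beside these as not called, were chosen after their values were seen.

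Alternatives were no TMM scaling, a loess scaling (span 0.3), no filter on low counts, DESeq2 1.42.0, a threshold of 0.01, a fit of the compared groups alone, promoters fitted apart, annotated regions alone, and leaving out each library, and for peaks a -log10 q of at least 5 or an overlap of at least 50% of the region. The fits without both libraries of high promoter share and with promoters apart were chosen after seeing the data. Another fit had the replicate number as a block. The calls over 9 libraries come from a fit with the group alone and are unpaired. Only the fit with a block took the numbers as pairs, and the labels do not say what the numbers mark. Deviations of same-numbered DMSO and osimertinib DTP libraries correlated at 0.334, 0.355 and 0.324, all over 0.1. The correlations were -0.0183, 0.553 and 0.362 between DMSO and the AZD5153 group, and 0.243, 0.0262 and -0.24 between the drug groups.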

Additional observations from a re-analysis of the deposited data

How the results depend on the processing

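Over 37 regions described above, each in both comparisons with DMSO (74 values), no call turned into one of the opposite direction. The sign of 54 alternative values at 14 regions differed from that over 9 libraries, all of them uncalled, as at the lead promoter of KRT18. Of the alternative values, 1307 of 1406 stayed on their side of the threshold, 57 lost a call and 42 gained one. The counts of called members moved more. In osimertinib DTP against DMSO, 8 higher and 18 lower members became 3 and 6 at an adjusted p under 0.01, 14 and 28 with DESeq2, 29 and 36 with the libraries of both groups alone, 29 and 46 without both libraries of high promoter share, and ranged from 1 to 30 and from 2 to 37 when 1 library was left out. Calls over all regions in that comparison were, in the same order, 2036 and 1737 of 157919, 12497 and 15406 of 157919, 19930 and 18728 of 146480, and 24167 and 19390 of 161681. They were 668 and 482 of 164143 without DMSO replicate 2, and 22942 and 20489 of 161758 without AZD5153 group replicate 3. In the AZD5153 group against DMSO, 13 higher and 27 lower became 6 and 17 at 0.01 and 37 and 56 without both libraries, and ranged from 4 to 28 and from 15 to 50. For the AZD5153 group, calls over all regions were 4834 and 4964 of 157919 at 0.01, and 22.8% and 19.8% without both libraries. The higher count was also 24 with DESeq2 and 21 with promoters fitted apart, beside 20355 of 157919 and 17648 of 158873 regions. Between the drug groups, 0 and 0 became 6 and 5 without both libraries, beside 1.13% and 0.982% of all regions. The extremes of leaving out 1 library were those without DMSO replicate 2 and without AZD5153 group replicate 3. The cause of these shifts was not tested.

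With the replicate number as a block, osimertinib DTP had 6 higher and 16 lower members and the AZD5153 group 13 and 30. Calls over all 157919 regions were then 8433 and 8008, and 12445 and 15202. The block ended 5 of 26 calls in the former and 1 of 40 in the latter, that of the distal CLDN1 region.

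Without TMM scaling the median over all regions of the log2 fold change in the AZD5153 group moved from 0.23 to -0.02, and 9564 regions were higher and 15152 lower in place of 14286 and 14232. The members' median moved by more than the spread of replicates only in osimertinib DTP without both libraries, from 0.12 to -0.19.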
